A study of Sus scrofa with 9 samples.

Results

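Popeye domain genes and cardiac connexins were described across 9 porcine hearts. The members were chosen by gene symbol and were BVES, POPDC2 and POPDC3 of the Popeye family and GJA1, GJA5, GJA4 and GJC1 of the connexin family. Of these 7 names, 6 were found among the 25149 genes of the expression table, and GJA4 was not analysed here. BVES entered the set because of its values in the 2 comparisons against NRP + SCS 2 h. For those comparisons the members' values are therefore given as a description with no test, and only the remaining pair of groups was tested.

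Popeye proteins are membrane proteins that bind cyclic AMP (cAMP) through their Popeye domain. They are most abundant in heart and skeletal muscle, where loss of BVES or POPDC2 is known to disturb cardiac rhythm. Connexins assemble into gap junction channels that pass ions between neighbouring cells. In the heart these channels sit mainly at the intercalated disc, the end-to-end contact of cardiomyocytes, and carry the electrical impulse.

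Expression was given as TPM, which scales the reads of a gene by transcript length and by the library total. All hearts came from female American Yorkshire pigs aged 4 to 6 months, and all underwent simulated donation after circulatory death (DCD) with 15 min of warm ischemia. Group 1 (NRP + HOPE 24 h, pigs 27, 28 and 30) received 60 min of normothermic regional perfusion (NRP) and was kept by hypothermic oxygenated perfusion (HOPE) at 8 °C for 24 h. Group 2 (NRP + SCS 2 h, pigs 24, 25 and 29) received the same NRP and was kept in static cold storage (SCS) at 4 °C for 2 h. Group 3 (No NRP + HOPE 2 h, pigs 31, 33 and 34) was procured directly and kept by HOPE at 8 °C for 2 h. Every heart was then reanimated by normothermic machine perfusion (NMP) for 2 h before biopsy of the apex. No heart analysed here was spared DCD or sampled before NMP. Groups 1 and 2 differ in both the method and the length of storage, Groups 3 and 2 in NRP and the method, and Groups 1 and 3 in NRP and the length, so these factors cannot be told apart.

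The labels name the sampled cell type as cardiomyocytes, but markers of other cells were present in these bulk biopsies. Cardiomyocyte markers (9 of 16 listed) summed to 38034–50132 TPM in NRP + SCS 2 h, 31809–60714 TPM in NRP + HOPE 24 h and 37660–51586 TPM in No NRP + HOPE 2 h. Endothelial markers (11 of 14 listed) summed to 844–1007, 469–989 and 494–1027 TPM, and fibroblast markers (6 of 8 listed) to 692–1015, 777–1141 and 1037–1164 TPM in the same order. In bulk tissue, fewer cells of a type and less RNA per cell cannot be told apart. The 13 mitochondrially encoded protein-coding genes made up 44.8% to 55.3% of TPM in 8 hearts and 38.2% in pig 30, which stood apart in this respect.

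In the level of expression, GJA1, which encodes the main connexin of working ventricular muscle, stood far above the other members. Its mean was 306 TPM over the 9 hearts, at the 98.0th percentile of the 11782 genes that passed the expression filter of at least 1 TPM in at least 3 hearts. POPDC3 followed at 36.8 TPM, then GJC1 at 23.2, POPDC2 at 20.7, GJA5 at 17.9 and BVES at 13.1 TPM. GJA1 was higher than POPDC3 in 9 of 9 hearts. The next neighbours in this order were not separated, since POPDC3 exceeded GJC1 in 7, GJC1 exceeded POPDC2 in 6, POPDC2 exceeded GJA5 in 5 and GJA5 exceeded BVES in 6 of 9 hearts. The order was not the same in each group. BVES was the third member by mean in NRP + SCS 2 h and the last in both HOPE groups.

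**Figure D1:**
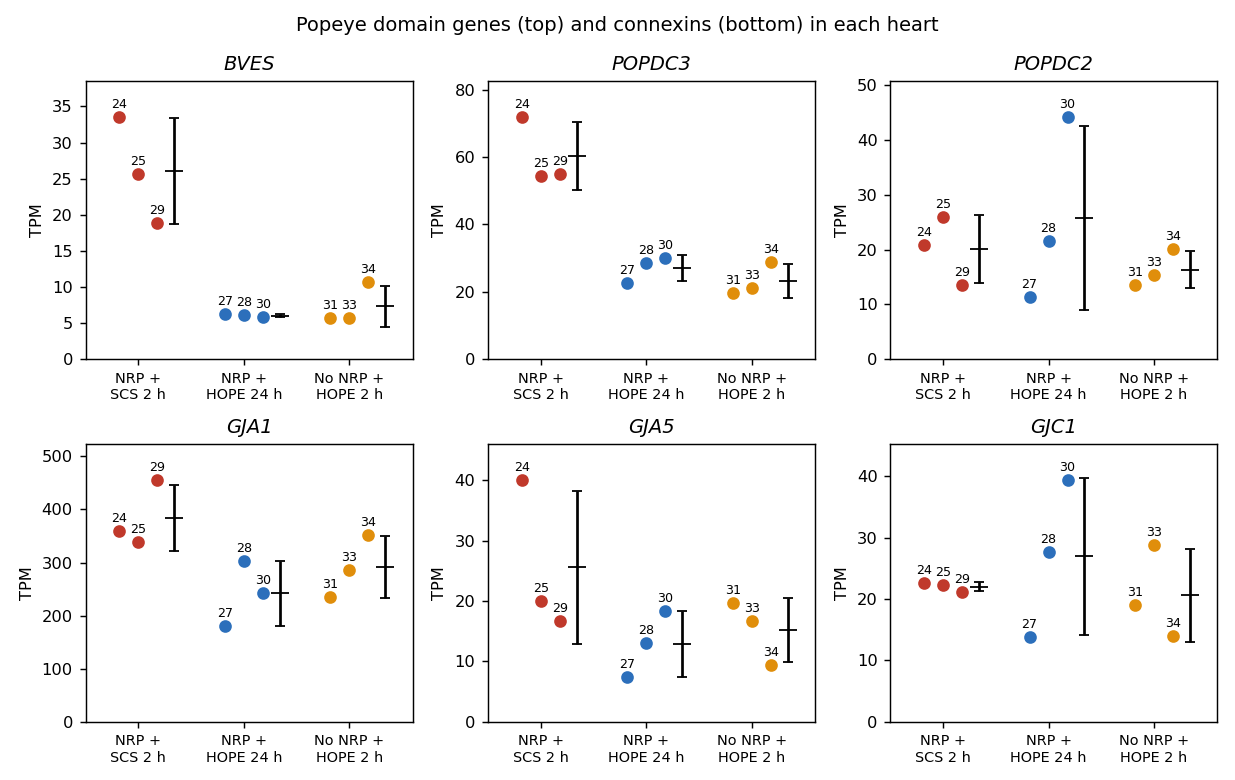
Expression of the 6 members in TPM (vertical axes, from 0) in each heart, by group. Points are hearts with their pig number, and the black bar is the group mean with its SD (n = 3). BVES and POPDC3 of the 3 NRP + SCS 2 h hearts lie above all 6 HOPE-preserved hearts, while POPDC2 and GJC1 overlap in all pairs of groups.

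Among the Popeye genes, BVES and POPDC3 were lower in both HOPE groups than in NRP + SCS 2 h, and POPDC2 was not. BVES (ENSSSCG00000004366) encodes the founding Popeye protein, a cAMP-binding membrane protein of muscle and epithelium. Its levels were 33.5, 25.7 and 18.9 TPM in NRP + SCS 2 h, 6.18, 6.05 and 5.85 TPM in NRP + HOPE 24 h and 5.71, 5.65 and 10.6 TPM in No NRP + HOPE 2 h. The lowest SCS heart, pig 29, lay above the highest HOPE heart, pig 34. The means were 26.0 ± 7.31, 6.02 ± 0.167 and 7.33 ± 2.85 TPM (SD, n = 3 each). Mean BVES in NRP + SCS 2 h was thus 4.32 times that of NRP + HOPE 24 h and 3.55 times that of No NRP + HOPE 2 h. On the log2(TPM + 1) scale, the difference was -1.91 (standard error, SE, 0.32) for NRP + HOPE 24 h and -1.71 (SE 0.32) for No NRP + HOPE 2 h, each against the same 3 NRP + SCS 2 h hearts.

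POPDC3 (ENSSSCG00000004367), the family member with the highest level here, encodes a Popeye protein found mainly in skeletal muscle and heart. It had 71.8, 54.2 and 54.8 TPM in NRP + SCS 2 h, 22.7, 28.5 and 29.9 TPM in NRP + HOPE 24 h and 19.5, 21.0 and 28.8 TPM in No NRP + HOPE 2 h. The SCS hearts did not overlap either HOPE group, and the gap between the lowest SCS heart (pig 25) and the highest HOPE heart (pig 30) ran from 54.2 to 29.9 TPM. The means were 60.3 ± 9.98, 27.0 ± 3.83 and 23.1 ± 4.98 TPM. The log2 difference from NRP + SCS 2 h was -1.12 (SE 0.28) in NRP + HOPE 24 h and -1.35 (SE 0.28) in No NRP + HOPE 2 h.

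POPDC2 (ENSSSCG00000011894), which encodes a Popeye protein of heart muscle and the conduction system, showed no such separation. Its levels were 20.9, 26.0 and 13.5 TPM in NRP + SCS 2 h, 11.4, 21.6 and 44.2 TPM in NRP + HOPE 24 h and 13.6, 15.4 and 20.0 TPM in No NRP + HOPE 2 h. All 3 groups overlapped, and the highest value was that of pig 30, the heart with the lowest mitochondrially encoded share. The log2 difference from NRP + SCS 2 h was 0.19 (SE 0.42) in NRP + HOPE 24 h and -0.26 (SE 0.42) in No NRP + HOPE 2 h. Without pig 30, the first of these was -0.29. The second ran from -0.50 to -0.056 when 1 heart was left out.

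The make-up of the Popeye family differed accordingly. Summed Popeye TPM was 126, 106 and 87.2 in the NRP + SCS 2 h hearts, 40.2, 56.2 and 80.0 in NRP + HOPE 24 h and 38.8, 42.1 and 59.5 in No NRP + HOPE 2 h. BVES contributed 21.7% to 26.6% of that sum in NRP + SCS 2 h, 7.31% to 15.3% in NRP + HOPE 24 h and 13.4% to 17.9% in No NRP + HOPE 2 h. POPDC2 contributed 15.5% to 24.5%, 28.2% to 55.3% and 33.7% to 36.6% in the same order. POPDC3 was the largest contributor in 8 hearts, with 48.4% to 62.8%, and was exceeded by POPDC2 only in pig 30. The ratio of POPDC3 to BVES was 2.11 to 2.90 in NRP + SCS 2 h, 3.68 to 5.12 in NRP + HOPE 24 h and 2.71 to 3.72 in No NRP + HOPE 2 h, so BVES was lower in proportion than POPDC3 in the NRP + HOPE 24 h hearts.

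**Figure D2:**
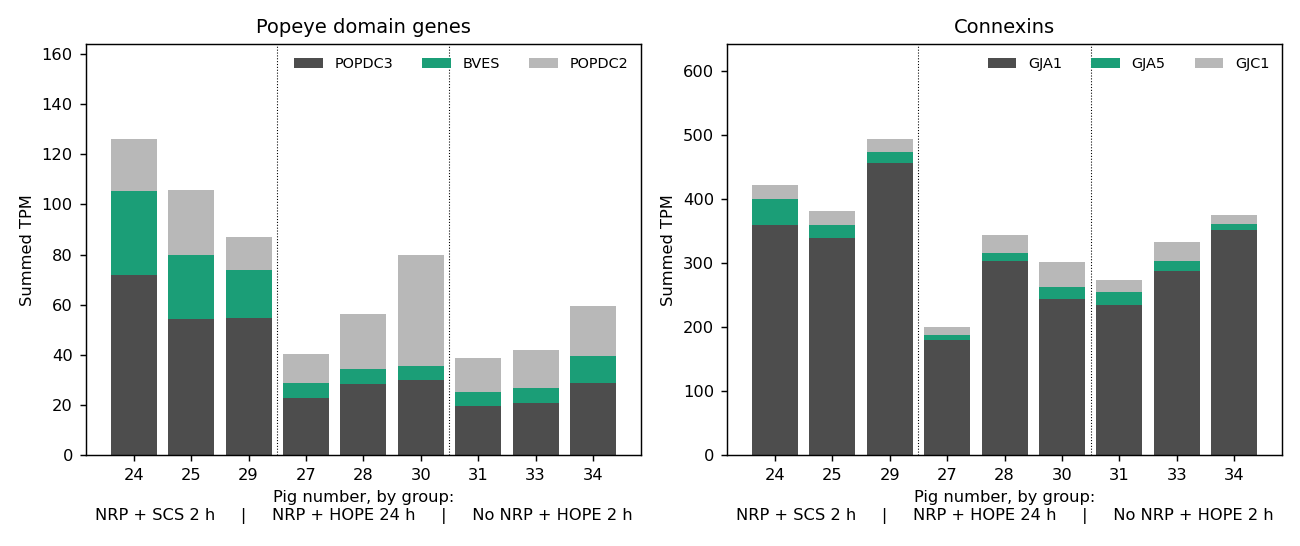
Summed TPM of the Popeye domain genes (left) and of the connexins (right) in each heart, with pigs grouped by treatment along the horizontal axis and segments for each gene. The Popeye sum was 87.2 to 126 TPM in NRP + SCS 2 h and at most 80.0 TPM in the HOPE-preserved hearts, with a BVES segment of at least 18.9 TPM in the former and at most 10.6 TPM in the latter.

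Among the connexins, GJA1 was lower in NRP + HOPE 24 h than in NRP + SCS 2 h without overlap, and the remaining connexins overlapped. GJA1 (ENSSSCG00000004241) had 359, 339 and 456 TPM in NRP + SCS 2 h, 180, 302 and 243 TPM in NRP + HOPE 24 h and 235, 287 and 351 TPM in No NRP + HOPE 2 h. The highest NRP + HOPE 24 h heart (pig 28) was below the lowest SCS heart (pig 25), whereas pig 34 of No NRP + HOPE 2 h lay within the SCS range. The means were 385 ± 62.3, 242 ± 61.5 and 291 ± 58.4 TPM. The log2 difference from NRP + SCS 2 h was -0.69 (SE 0.27) in NRP + HOPE 24 h and -0.41 (SE 0.27) in No NRP + HOPE 2 h. When 1 heart was left out, these ran from -0.86 to -0.49 and from -0.55 to -0.26. Over the other settings of the analysis they ran from -0.70 to -0.48 and from -0.42 to -0.23. Over the 9 hearts, r of GJA1 with the endothelial markers was 0.672. The part of cell content in the GJA1 values was not tested.

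GJA5 (ENSSSCG00000006696) encodes a connexin of atrial muscle, the fast conduction system and arterial endothelium. It had 40.0, 20.0 and 16.7 TPM in NRP + SCS 2 h, 7.45, 13.0 and 18.4 TPM in NRP + HOPE 24 h and 19.7, 16.6 and 9.38 TPM in No NRP + HOPE 2 h. The 3 groups overlapped, and pig 24 stood highest. The log2 difference from NRP + SCS 2 h was -0.91 (SE 0.41) in NRP + HOPE 24 h and -0.67 (SE 0.41) in No NRP + HOPE 2 h, and without pig 24 these were -0.55 and -0.31. The summed TPM of the atrial markers (4 of 5 listed) was also highest in this heart. It was 456 TPM in pig 24, mainly from NPPA, which encodes atrial natriuretic peptide and had 411 TPM there. The other atrial markers were not highest in pig 24. MYL4 had 40.4 TPM there and 55.4 TPM in pig 25, and SLN had 4.40 TPM there and 4.44 TPM in pig 34. The sum over the hearts ran from 31.3 to 456 TPM in NRP + SCS 2 h, 56.7 to 86.2 TPM in NRP + HOPE 24 h and 35.8 to 217 TPM in No NRP + HOPE 2 h, and MYBPHL was under 1 TPM in all 9. Over the 9 hearts, r with the atrial markers was 0.288 for GJA5, below the 0.624 of BVES and the 0.547 of POPDC3. The part of atrial-type expression in these values was not tested. The mean log2(TPM + 1) of the endothelial markers was 6.04 ± 0.10, 5.60 ± 0.54 and 5.80 ± 0.53 in NRP + SCS 2 h, NRP + HOPE 24 h and No NRP + HOPE 2 h. Relative to these markers, the GJA5 difference from NRP + SCS 2 h was -0.46 in NRP + HOPE 24 h and -0.42 in No NRP + HOPE 2 h.

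GJC1 (ENSSSCG00000021306), a connexin of the nodes and of the developing heart, was even across NRP + SCS 2 h and widely scattered in NRP + HOPE 24 h. It had 22.5, 22.2 and 21.1 TPM in NRP + SCS 2 h, 13.8, 27.6 and 39.4 TPM in NRP + HOPE 24 h and 19.0, 28.8 and 14.0 TPM in No NRP + HOPE 2 h. Both HOPE groups had hearts above and below the SCS range. The log2 difference from NRP + SCS 2 h was 0.17 (SE 0.37) in NRP + HOPE 24 h and -0.15 (SE 0.37) in No NRP + HOPE 2 h. Without pig 30, the first was -0.16. Conduction system markers (6 of 7 listed) summed to 16.8–23.2, 13.1–27.0 and 18.3–20.8 TPM in the 3 groups in the same order, with HCN4 and CACNA2D2 under 1 TPM in all hearts and ISL1 listed at 0.

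GJA1 made up most of the connexin transcripts in every heart, from 80.8% of the summed connexin TPM in pig 30 to 93.8% in pig 34. The sum was 381 to 493 TPM in NRP + SCS 2 h, 201 to 343 TPM in NRP + HOPE 24 h and 274 to 375 TPM in No NRP + HOPE 2 h. Of the 20 other connexins and pannexins written in the list, 9 were present in the table and none of these passed the filter. GJA9 reached 1.19 TPM in pig 31, the highest value among them, and GJB1, GJC3 and PANX3 were listed at 0 in all hearts. An exact 0 in this table may be a failed estimate, since MYH11, a gene of all smooth muscle, was also listed at 0 in all hearts although 6 other smooth muscle markers were detected.

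Across all genes, limma found few differences, a gene being called where its log2 fold change exceeded 1 in size and its Benjamini-Hochberg adjusted p was below 0.05. In Group 1 against Group 2, 3 genes were called, which is 0.0255% of the genes tested. In Group 3 against Group 2, 6 genes were called (0.0509%). The paper, which used DESeq2 on gene hit counts, reported more genes in both comparisons, so the low numbers here hold for limma on TPM. Because BVES was chosen on these 2 comparisons, the members' calls in them are not given. As a description, BVES, POPDC3 and GJA1 lay below NRP + SCS 2 h without overlap in NRP + HOPE 24 h, as did 7.32% of all genes. In No NRP + HOPE 2 h this applied to BVES and POPDC3 and to 10.3% of all genes. The median log2 difference of the 6 members was -0.80 in the first comparison and -0.54 in the second, beside -0.12 and -0.07 for all genes tested. The members' median includes BVES, which was chosen on these comparisons, and is not a shift shared by all members. POPDC2 and GJC1 lay at 0.19 and 0.17 in the first comparison and at -0.26 and -0.15 in the second. Rescaling by median of ratios, which brings the all-gene shift of the first comparison to 0.00020, gave BVES a log2 difference of -1.77 there and kept the sign of all 6 members in all 3 comparisons. The signs of POPDC2 in the first comparison and of GJC1 in the second were less stable. POPDC2 kept its sign in 17 of 20 settings, with -0.011 under array weights, and GJC1 in 17 of 21, with 0.13 under array weights and 0.030 relative to the cardiomyocyte markers.

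**Figure D3:**
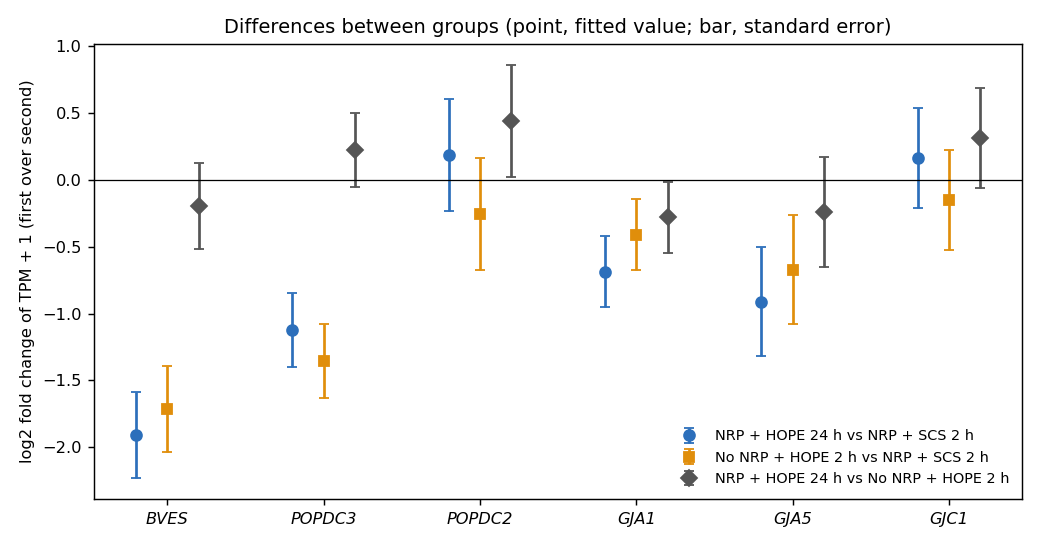
Log2 fold change of TPM + 1 (vertical axis) for the 6 members in the 3 comparisons between groups. Points are fitted values and bars are standard errors. BVES at -1.91 and -1.71 and POPDC3 at -1.12 and -1.35 lie lowest against NRP + SCS 2 h, while all 6 members lie between -0.28 and 0.44 in the comparison of the HOPE groups.

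The levels of BVES and POPDC3 were also set against the cardiomyocyte content. The mean log2(TPM + 1) of the cardiomyocyte markers was 10.96 ± 0.12 in NRP + SCS 2 h, 10.83 ± 0.49 in NRP + HOPE 24 h and 10.79 ± 0.36 in No NRP + HOPE 2 h. Relative to these markers, the difference from NRP + SCS 2 h was -1.77 for BVES and -0.99 for POPDC3 in NRP + HOPE 24 h. In No NRP + HOPE 2 h it was -1.54 and -1.18. Relative to the same markers, the difference of No NRP + HOPE 2 h went from -0.41 to -0.23 for GJA1 and from -0.26 to -0.080 for POPDC2. Epicardial markers (5 of 8 listed), which mark another site of BVES expression, summed to 10.6–17.2, 12.3–20.0 and 16.6–27.3 TPM in the 3 groups in the same order. Among skeletal muscle markers (4 of 8 listed), MYH2, MYOD1 and MYF5 were listed at 0 in all hearts and ACTA1, which cardiac muscle also expresses, had 2504 to 6923 TPM.

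NRP + HOPE 24 h and No NRP + HOPE 2 h were compared by test, since no member was chosen on this comparison. BVES was, however, chosen on both HOPE groups against the same NRP + SCS 2 h hearts. Its test here is therefore not independent of that choice, and neither are those of sums, shares and ratios with BVES below. None of the 6 members passed, by limma or by the exact permutation test, and none had an unadjusted limma p under 0.05. Across all genes 0.0509% were called and 6.01% had such an unadjusted p. BVES differed by -0.19 on the log2 scale (95% confidence interval -0.89 to 0.50, limma adjusted p = 0.989), with pig 34 above and pigs 31 and 33 below all NRP + HOPE 24 h hearts. POPDC3 differed by 0.23 (-0.37 to 0.82, adjusted p = 0.975) and POPDC2 by 0.44 (-0.46 to 1.35, adjusted p = 0.965). Among the connexins, GJA1 differed by -0.28 (-0.85 to 0.29, adjusted p = 0.965), GJA5 by -0.24 (-1.12 to 0.64, adjusted p = 0.989) and GJC1 by 0.31 (-0.49 to 1.12, adjusted p = 0.975). The two-sided exact permutation p-values ran from 0.3 for POPDC3 to 1.0 for BVES, where 3 hearts against 3 cannot give less than 0.1. All 6 members overlapped between these groups, where 7.48% of all genes did not. The intervals of POPDC2, GJA5 and GJC1 include differences of more than 1 on the log2 scale, so a difference of that size between the HOPE groups was not excluded by these hearts.

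Family sums, shares and ratios, 13 measures in all, were compared between the same groups. The exact permutation p-values ran from 0.1 to 1.0, and none was below 0.827 after Benjamini-Hochberg adjustment over the 13. The p was 0.6 for the Popeye sum and 0.5 for the connexin sum. The BVES share of the Popeye sum was 11.1 ± 4.03% in NRP + HOPE 24 h and 15.3 ± 2.28% in No NRP + HOPE 2 h (exact permutation p = 0.3). The ratio of POPDC3 to BVES was 4.50 ± 0.744 and 3.28 ± 0.517 (exact permutation p = 0.2). The ratio of GJA5 to GJC1 was 0.492 ± 0.040 and 0.761 ± 0.241 (exact permutation p = 0.1), with each of the 3 NRP + HOPE 24 h hearts below the 3 of No NRP + HOPE 2 h. This is the smallest p that the design allows, and its adjusted value was 0.827.

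Spread within groups differed among the members. The within-group SD of log2(TPM + 1) was 0.24 for POPDC3, 0.30 for GJA1 and 0.35 for BVES, all below the median of 0.42 over all genes tested. It was 0.51 for GJC1, 0.59 for GJA5 and 0.62 for POPDC2. POPDC3 was at the 7.55th percentile of all genes by this measure and POPDC2 at the 83.2nd.

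BVES and POPDC3 lie next to each other in the pig genome by the RefSeq annotation, with a predicted gene overlapping both. The genome build of the files is not given in the sources used here, and neither is the strand setting of the counting, so reads of overlapping transcripts may have been shared. In the flanking genes the differences were smaller. HACE1, a ubiquitin ligase gene, had log2 differences from NRP + SCS 2 h of -0.54 in NRP + HOPE 24 h and -0.32 in No NRP + HOPE 2 h. For ASCC3, which encodes a helicase, they were -0.67 and -0.46, and for PREP, which encodes a peptidase, -0.33 and -0.20. PRDM1, a transcriptional repressor gene, had 0.63 and 0.13. None of these 4 neighbours passed limma's adjusted test in either comparison, with adjusted p from 0.829 to 0.993.

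Across the 9 hearts, the deviations of BVES and POPDC3 from their group means had r = 0.775, a value given with no test. For the pooled correlation of this pair no p-value is given, because the SCS hearts form a separate cluster. Within the 6 HOPE-preserved hearts, Pearson's r was 0.454 (exact permutation p = 0.412, adjusted over 15 pairs 0.773) and Spearman's rho 0.543 (exact permutation p = 0.297, adjusted 0.637). Without the 2 hearts farthest from the median of BVES, pigs 33 and 34, r was 0.266. The hearts left span only 5.71 to 6.18 TPM of BVES, so this value cannot decide whether a relation exists. None of the 15 pairs of members passed the adjusted test in those 6 hearts. The lowest raw p was that of POPDC2 with POPDC3 (r = 0.778, exact permutation p = 0.0375, adjusted 0.514).

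**Figure D4:**
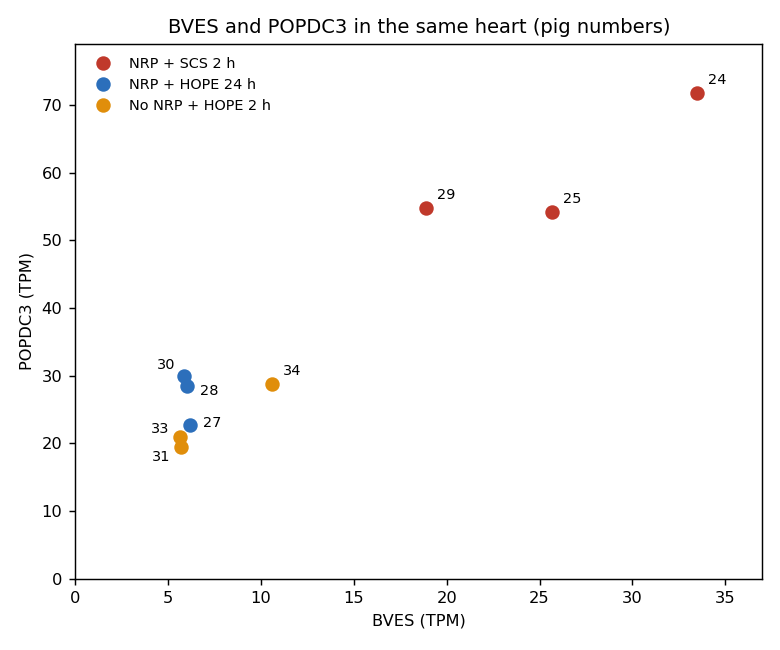
BVES (horizontal axis, TPM) against POPDC3 (vertical axis, TPM), each point a heart with its pig number, coloured by group. The 3 NRP + SCS 2 h hearts form a separate cluster at 18.9 TPM of BVES or more and 54.2 TPM of POPDC3 or more.

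The genes whose pattern over the 9 hearts was most like that of each member were listed by Pearson's r of log2(TPM + 1), as a description that carries the group differences with it. For BVES these were RUSC2 (r = 0.966), DMTF1 (0.963), POPDC3 (0.949), RABEP1 (0.934) and RETREG1 (0.913). POPDC3 was thus the third of 7944 named genes by likeness to BVES. For POPDC3 the leading genes were RETREG1 (0.972), NHLRC2 (0.951) and BVES (0.949). RUSC2 had means of 38.4, 8.55 and 9.39 TPM in NRP + SCS 2 h, NRP + HOPE 24 h and No NRP + HOPE 2 h, and RETREG1, an endoplasmic reticulum membrane gene, 158, 99.3 and 90.9 TPM. The other members had other partners. POPDC2 was led by SCARB1 (0.967), CCDC142 (0.958) and PMPCB (0.952), GJA1 by MDM2 (0.963), PDLIM3 (0.928) and SLC19A2 (0.926), GJA5 by SPOP (0.932), POLR2H (0.930) and ANAPC5 (0.923), and GJC1 by YKT6 (0.979), EMILIN2 (0.948) and ERCC8 (0.942). The likeness of BVES to POPDC2 was low (r = 0.094).

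Genes that work with the Popeye proteins and connexins were examined in 6 further lists, and limma called none of them in any of the 3 comparisons. Intercalated disc genes (17 tested) had lower means in 12 of 17 genes in NRP + HOPE 24 h and 14 of 17 in No NRP + HOPE 2 h, each against NRP + SCS 2 h. Their median log2 differences were -0.10 and -0.28, beside -0.12 and -0.07 for all genes, and no gene of this list had an unadjusted limma p under 0.05 in either comparison, where 4.97% and 7.22% of all genes did. DSP, which encodes the desmosomal linker desmoplakin, had 18.9 ± 6.61 TPM in NRP + SCS 2 h, 8.86, 8.66 and 25.8 TPM in NRP + HOPE 24 h, where pig 30 stood highest, and 10.4 ± 2.81 TPM in No NRP + HOPE 2 h (limma adjusted p = 0.993 and 0.749 against NRP + SCS 2 h). CDH2, which encodes the cadherin of the disc, had 20.4 ± 10.3 TPM in NRP + HOPE 24 h and 9.74 ± 4.68 TPM in No NRP + HOPE 2 h (log2 difference 0.94, limma adjusted p = 0.829), the 1 gene of the 17 with an unadjusted limma p under 0.05 between the HOPE groups, where 6.01% of all genes had one.

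Genes for proteins reported to bind Popeye proteins (6 tested) lay on both sides. At an unadjusted limma p under 0.05, 0 were counted in Group 1 against Group 2, and 1 higher and 1 lower in each of the comparisons with Group 3. Over all genes the shares were 4.97% in Group 1 against Group 2, 7.22% in Group 3 against Group 2 and 6.01% between the HOPE groups. NDRG4, which encodes a cytoplasmic protein bound by BVES, had 10.1, 9.54 and 5.16 TPM in NRP + SCS 2 h, 3.61, 5.95 and 9.60 TPM in NRP + HOPE 24 h and 2.73, 1.88 and 3.56 TPM in No NRP + HOPE 2 h. The last group lay below NRP + SCS 2 h without overlap (log2 difference -1.29, limma adjusted p = 0.414), as did 10.3% of all genes. ARHGEF25, which encodes a guanine nucleotide exchange factor, had 4.73, 4.67 and 4.95 TPM, then 3.27, 3.96 and 4.65 TPM, and then 6.15, 13.3 and 12.5 TPM in the same order. No NRP + HOPE 2 h was higher than both other groups without overlap, with log2 differences of 0.95 from NRP + SCS 2 h (limma adjusted p = 0.532) and 1.18 in size from NRP + HOPE 24 h (limma adjusted p = 0.402). Of all genes, 4.44% were higher without overlap in No NRP + HOPE 2 h than in NRP + SCS 2 h, and 4.51% than in NRP + HOPE 24 h.

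In cAMP signaling (22 tested), the means were lower in 11 of 22 genes in NRP + HOPE 24 h and 13 of 22 in No NRP + HOPE 2 h, each against NRP + SCS 2 h, with median log2 differences of 0.02 and -0.03. At an unadjusted limma p under 0.05, the counts were 1 higher and 3 lower in the former and 1 higher and 0 lower in the latter, where 4.97% and 7.22% of all genes passed that threshold. Between the HOPE groups they were 1 higher and 2 lower in NRP + HOPE 24 h, beside 6.01% of all genes. PDE7A, which encodes a phosphodiesterase that degrades cAMP, had 40.1, 41.3 and 64.4 TPM in NRP + SCS 2 h and 19.1, 7.74 and 8.98 TPM in NRP + HOPE 24 h. It had 18.1, 31.0 and 79.6 TPM in No NRP + HOPE 2 h, a range that spans that of NRP + SCS 2 h. The log2 difference of Group 1 from Group 2 was -2.01 (SE 0.47, limma adjusted p = 0.299). ADCY4, an adenylyl cyclase gene, had 52.0 ± 7.02 TPM in NRP + SCS 2 h and 25.2 ± 8.84 TPM in NRP + HOPE 24 h (limma adjusted p = 0.573). PDE4B, a further phosphodiesterase gene and the higher gene of that count, had 44.8 ± 12.4 and 75.3 ± 23.8 TPM (log2 difference 0.72, limma adjusted p = 0.985). PDE4D, another phosphodiesterase gene, had 26.1 ± 1.70 TPM in NRP + SCS 2 h, 16.4 ± 2.85 TPM in NRP + HOPE 24 h and 17.4 ± 0.982 TPM in No NRP + HOPE 2 h (limma adjusted p = 0.943 and 0.694). CREM, a cAMP-responsive transcription factor gene, had 24.2 ± 3.70 TPM in NRP + SCS 2 h and 45.2 ± 7.72 TPM in No NRP + HOPE 2 h (limma adjusted p = 0.516).

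Transcription factors known to regulate connexin genes (13 tested) had median log2 differences from NRP + SCS 2 h of -0.12 in NRP + HOPE 24 h and 0.04 in No NRP + HOPE 2 h. GATA4, a cardiac transcription factor gene, had 7.63 ± 2.10 TPM in NRP + SCS 2 h and 3.36 ± 0.586 TPM in No NRP + HOPE 2 h (limma adjusted p = 0.689), and its relative GATA6 had 16.9 ± 5.23 and 31.4 ± 10.8 TPM (adjusted p = 0.690). Genes of connexin assembly and turnover (12 tested) had medians of -0.16 and -0.02. SRC, a kinase gene, had 6.65 ± 3.77 TPM in NRP + SCS 2 h and 2.66 ± 0.835 TPM in No NRP + HOPE 2 h (limma adjusted p = 0.664). Arterial endothelial genes (13 tested), from vessels in which GJA5 is also made, had medians of -0.12 and -0.04. NOTCH4, a receptor gene of endothelium, had 20.8 ± 5.12 TPM in NRP + SCS 2 h, 10.9 ± 3.40 TPM in NRP + HOPE 24 h and 21.2 ± 7.89 TPM in No NRP + HOPE 2 h (limma adjusted p = 0.943 for the first pair and 0.795 between the HOPE groups). At an unadjusted limma p under 0.05, the transcription factors had 1 lower gene, GATA4, in Group 3 against Group 2. The assembly and turnover genes had 1 higher and 1 lower gene in Group 1 against Group 2 and 1 lower gene in each other comparison. The arterial genes had 1 lower gene, NOTCH4, in both comparisons of Group 1. The shares of all genes at this threshold were the 4.97%, 7.22% and 6.01% given above for the 3 comparisons.

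**Figure D5:**
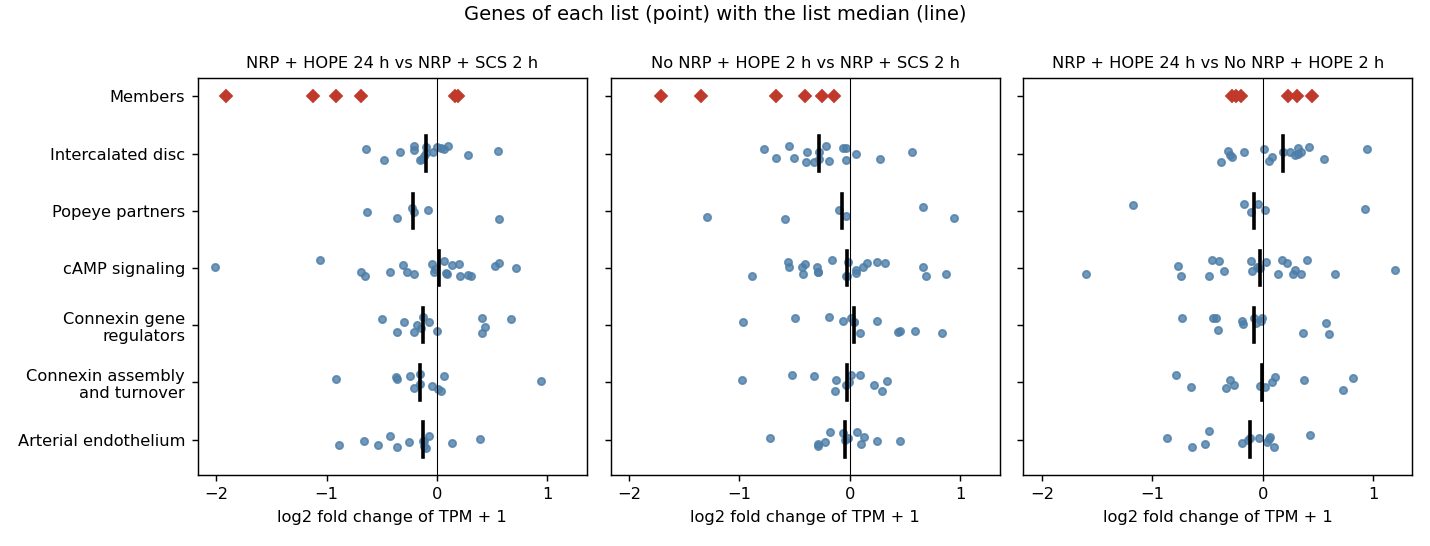
Log2 fold change of TPM + 1 (horizontal axes) for the members (red diamonds) and for the tested genes of 6 related lists (blue points, with the list median as a black line) in the 3 comparisons. List medians lie between -0.28 and 0.18, and PDE7A at -2.01 is the lowest point of the lists in the comparison of Group 1 with Group 2.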

How the data were processed

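RNA of flash-frozen apex biopsies was sequenced by the authors as oligo(dT)-enriched, paired-end libraries. The submitters' processing notes name bcl2fastq 2.17, Trimmomatic 0.36, STAR 2.5.2b and featureCounts from Subread 1.5.2, and the authors aligned reads to a Sus scrofa genome. The deposited values used are TPM per gene, summing to 1000000 in each heart. TPM keep no read depth, so depth is unknown and no counting interval was given. The table holds 9 further columns of per-sample values that match none of these samples and were not used. Of 25149 genes, the 11782 that reached 1 TPM in 3 or more hearts were fitted with limma 3.58.1 (R 4.3.3) on log2(TPM + 1) in a single model of the 9 hearts with a mean for each group, an intensity trend and Benjamini-Hochberg adjustment within each comparison. The pseudocount of 1 understates fold changes of low genes. Genes were called at adjusted p under 0.05 with absolute log2 fold change over 1. The script was tested on simulated data. Exact permutation tests were two-sided. Groups came from the labels, each pig being 1 replicate. The members and gene lists were chosen with earlier results of these data known. Named genes were all members, the 5 genes most like BVES and the 3 most like each other member by Pearson's r, up to 4 genes of smallest p per list and comparison, from which those with the lowest p-values are printed, and marker genes. The flanking genes and the within-HOPE correlations were chosen after the data were seen. Gene symbols came from the table, and RefSeq (Sscrofa11.1) was used only for which genes neighbour each other. No member sequence was at hand, so none is printed. Alternatives covered the pseudocount, filters, scaling, the hearts and estimator of the fit, and leaving out each heart.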

Additional observations from a re-analysis of the deposited data

How the results depend on the processing

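In the comparisons on which BVES was chosen, those against NRP + SCS 2 h, and as a description only, its log2 difference ran from -2.11 to -1.71 (NRP + HOPE 24 h) and from -1.98 to -1.52 (No NRP + HOPE 2 h) when 1 heart was left out. The number of called genes was unstable. In Group 1 against Group 2 the 3 genes became 0 with a pseudocount of 0.1, 1 without a filter, 6 with a mean of at least 5 TPM, 5 with quantile normalization, 13 with only the 6 hearts compared, 8 with robust eBayes and 60 with array weights (0 without pig 24 or 30 to 12 without pig 27). In Group 3 against Group 2 the 6 became 1 without a filter, 19 under median-of-ratios scaling, 12 under quantile normalization, 20 without mitochondrially encoded genes, 3 with only the 6 hearts compared, 11 with robust eBayes and 94 with array weights (1 without pig 24 or 25 to 13 without pig 29). In Group 1 against Group 3 the 6 became 3 with the other pseudocount, median-of-ratios scaling or quantile normalization, 2 without mitochondrially encoded genes and 14 with array weights (0 without pig 30 to 16 without pig 33). Array weights called 1 gene of the lists, PDE7A, in the first comparison and 2, NDRG4 and ARHGEF25, in the second, and no other setting called any. Between the HOPE groups, members were called in 0 of 19 settings. Also between the HOPE groups, 4 members changed sign when 1 heart was left out: BVES ran from -0.33 to 0.072 (without pig 34), POPDC2 from -0.035 (without pig 30) to 0.90, GJC1 from -0.0093 (without pig 30) to 0.71, and GJA5 from -0.53 to 0.082 (without pig 27). GJA1 and POPDC3 kept their sign but ran from -0.46 to -0.081 and from 0.12 to 0.39. Against NRP + SCS 2 h, POPDC2 in Group 1 (0.19 as reported) was -0.011 with array weights, -0.060 without pig 29 and -0.29 without pig 30. GJC1 was -0.16 in Group 1 without pig 30, and in Group 3 (-0.15 as reported) it was 0.13 with array weights, 0.088 without pig 34, 0.030 relative to cardiomyocyte markers and 0.099 relative to endothelial markers. The cause of these changes was not tested. No paired analysis was possible because pig numbers are not shared between groups.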
